A study of Mus musculus with 20 samples.

Results

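The 10 genes described here encode the cyclins that carry mouse embryonic stem (ES) cells from G1 to mitosis and the inhibitors that hold cyclin-dependent kinases (CDKs) back: the G1 cyclins Ccnd1, Ccnd2, Ccnd3, Ccne1 and Ccne2, the S phase cyclin Ccna2, the mitotic cyclins Ccnb1 and Ccnb2, and the CDK inhibitors Cdkn1a and Cdkn1b. Open chromatin around them was taken from the ATAC-seq peak list of the study, in which a transposase cuts accessible DNA. Every listed peak that overlapped a gene in the GENCODE annotation or lay within 50000 bp of it was taken, which gave 131 of 102373 peaks. No peak was shared between the windows of different genes.

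ATAC-seq was performed in ZHBTc4 cells, a mouse ES cell line in which doxycycline (dox) switches off endogenous OCT4. All groups carried lentiviral YPet-MD, a fluorescent reporter of the cell cycle, and OCT4 with a SNAP tag, expressed below the wild-type level from the constitutive PGK promoter and fused either to a mitotic degron (SNAP-MD-OCT4) or to a mutated one (SNAP-MD*-OCT4). The degron comes from Cyclin B1 and removes the fused protein at the end of mitosis. Both constructs were measured after 40 h of dox at 1 ug/ml in 4 sorted fractions, early G1 (EG1), late G1 (LG1), S phase, and the end of S with G2 (SG2), with 2 biological replicates in each of these 8 groups, and in 4 unsorted untreated libraries that did not enter the peak list. The constructs were compared in sorted pools of transduced cells, grown with serum, LIF and inhibitors of GSK3 and MEK.

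The list merges the peaks of the 16 dox-treated libraries into 1 set of coordinates, with no value for any library. It shows which regions were open in at least 1 library. A width below is that of the merged peak, which need not be the width in any single library. The list has a further limit. It cannot show whether a peak differed between MD-OCT4 and MD*-OCT4 or between the phases. The words "G1", "S" and "mitotic" below therefore name the phase in which a cyclin acts and not the phase of the cells. Depth per library is unknown, no value has a replicate error, and no test was possible. Counts over the 10 genes are therefore given beside the same counts over all 21938 protein-coding genes.

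Cyclins are the activating subunits of CDKs, and most are made and destroyed once in each cycle. D type cyclins bind CDK4 and CDK6 and take up signals from growth factors. E type cyclins and cyclin A2 drive CDK2 at the start of and through S phase. Cyclins B1 and B2 bind CDK1 for entry into mitosis, and their promoters are known for CCAAT boxes bound by NF-Y and for a cell cycle homology region (CHR) read by the DREAM and MYB-MuvB complexes. Cdkn1a (p21), a classic target of p53, and Cdkn1b (p27) bind and block cyclin and CDK complexes. ES cells are known for a short G1 phase. According to the study, G1 lasted longer in its dox-treated cells than in wild-type ES cells.

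The start-site sequences show what lies under the peaks. RefSeq promoter sequences (GRCm38.p6), from 250 bp before to 50 bp after a start, were matched for 6 of the 10 genes. All 300 bases of each lay inside a listed peak. No sequence was matched for Ccnd1, Ccnd2, Ccne2 and Ccna2. At the annotated 5' end, the same window was 9% inside a peak at Ccnd1 and 4% at Ccnd2. It was 55.7% at Ccnd3 and 0% at Cdkn1a, both printed at a downstream start, and 100% at the other genes. In the sequences, capitals mark the CCAAT box of NF-Y (CCAAT), the CHR (TTTGAA or TTCGAA) and the GC box of SP and KLF factors (GGGCGG), each searched on both strands. The mitotic cyclins come first, since the spacing of their CCAAT boxes is described further down. The promoter of Ccnb1 is at chr13:100786437-100786736 on the minus strand, and that of Ccnb2 at chr9:70421505-70421804 on the minus strand.
Ccnb1: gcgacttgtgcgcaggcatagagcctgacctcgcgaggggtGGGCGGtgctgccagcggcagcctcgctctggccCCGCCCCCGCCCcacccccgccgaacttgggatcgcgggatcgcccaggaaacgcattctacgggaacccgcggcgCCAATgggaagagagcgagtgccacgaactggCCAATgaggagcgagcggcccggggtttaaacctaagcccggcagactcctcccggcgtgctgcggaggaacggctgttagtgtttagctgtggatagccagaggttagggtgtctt
Ccnb2: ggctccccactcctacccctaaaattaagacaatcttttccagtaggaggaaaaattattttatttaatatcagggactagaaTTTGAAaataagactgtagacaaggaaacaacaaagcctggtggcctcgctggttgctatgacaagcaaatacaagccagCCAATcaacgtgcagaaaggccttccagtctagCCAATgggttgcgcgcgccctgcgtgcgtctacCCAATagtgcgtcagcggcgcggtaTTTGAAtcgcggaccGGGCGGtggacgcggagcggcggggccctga

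Shown for contrast are the GC boxes of the E type cyclin Ccne1 (chr7:38107441-38107740, minus strand) and of Ccnd3 at its downstream start (chr17:47593217-47593516, plus strand), together with the inhibitor promoters. Those are Cdkn1a at the start that had a peak (chr17:29093519-29093818, plus strand) and Cdkn1b (chr6:134920151-134920450, plus strand).
Ccne1: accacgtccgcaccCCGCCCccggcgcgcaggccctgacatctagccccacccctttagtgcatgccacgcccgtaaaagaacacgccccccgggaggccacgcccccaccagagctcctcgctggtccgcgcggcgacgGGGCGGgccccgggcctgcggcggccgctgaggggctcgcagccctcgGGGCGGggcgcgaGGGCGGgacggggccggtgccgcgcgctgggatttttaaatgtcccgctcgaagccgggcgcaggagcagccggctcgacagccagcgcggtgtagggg
Ccnd3: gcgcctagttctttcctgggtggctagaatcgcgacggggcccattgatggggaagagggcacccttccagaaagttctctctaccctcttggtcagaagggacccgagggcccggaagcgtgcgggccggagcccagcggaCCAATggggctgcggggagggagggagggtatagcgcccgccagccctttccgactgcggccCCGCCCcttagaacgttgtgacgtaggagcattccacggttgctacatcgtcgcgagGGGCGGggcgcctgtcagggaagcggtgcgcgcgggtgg
Cdkn1a: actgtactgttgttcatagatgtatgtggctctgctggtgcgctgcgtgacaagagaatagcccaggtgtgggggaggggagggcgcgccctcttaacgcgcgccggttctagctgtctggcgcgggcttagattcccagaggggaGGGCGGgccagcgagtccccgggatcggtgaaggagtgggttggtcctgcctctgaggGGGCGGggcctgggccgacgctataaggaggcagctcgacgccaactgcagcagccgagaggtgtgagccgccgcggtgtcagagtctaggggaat
Cdkn1b: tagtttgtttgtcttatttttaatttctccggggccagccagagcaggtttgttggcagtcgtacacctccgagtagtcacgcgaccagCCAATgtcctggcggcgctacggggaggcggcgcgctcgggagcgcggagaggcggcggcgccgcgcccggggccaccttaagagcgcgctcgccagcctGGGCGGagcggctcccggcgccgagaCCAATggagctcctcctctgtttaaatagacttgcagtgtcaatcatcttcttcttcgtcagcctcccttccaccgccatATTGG

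Each of the 10 genes had a promoter peak, that is, a listed peak at most 1000 bp from an annotated transcription start site (TSS) of the gene. Of all protein-coding genes 70.4% had such a peak. The genes differed more in where the peak lay. The annotated 5' end was inside a listed peak at 7 of the 10 genes, against 58.8% of all protein-coding genes, and the exceptions were Ccnd1, Ccnd2 and Cdkn1a.

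**Figure D1:**
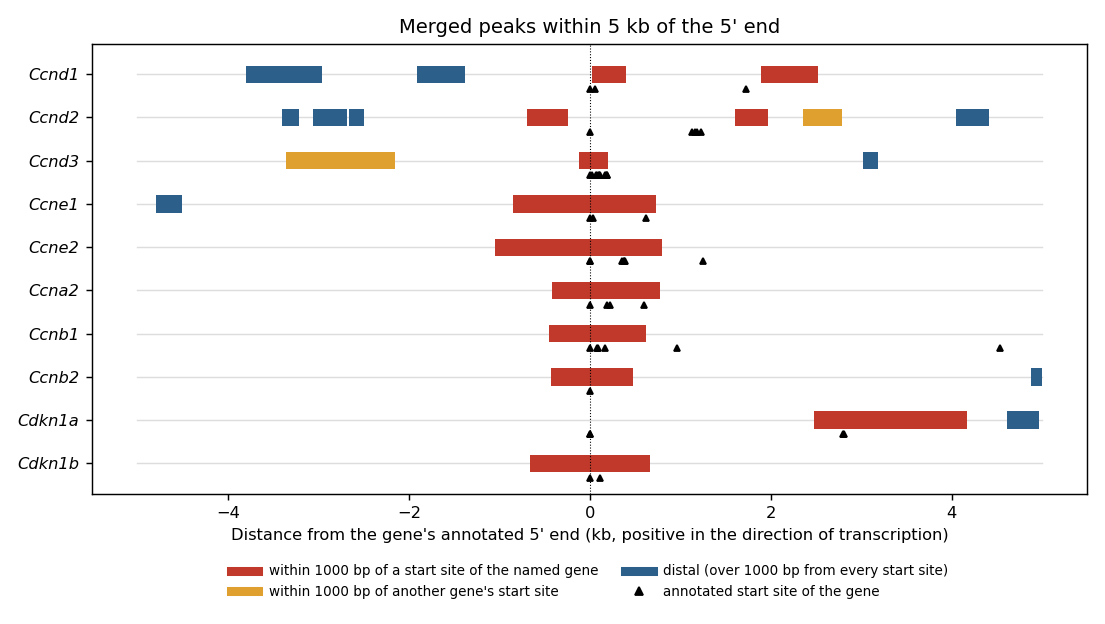
Listed peaks within 5 kb of the annotated 5' end of each gene, drawn to scale along the direction of transcription (x axis, kb), with 1 row per gene and triangles for its annotated start sites. The E, A and B type cyclins and Cdkn1b each have 1 peak of 900 to 1844 bp across the 5' end, whereas the peaks at the starts of the D type cyclins (red) measure 316 to 634 bp here and Cdkn1a has a peak 2480 bp downstream of its 5' end.

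Among the G1 cyclins, the D type genes had narrow peaks at or beside their starts. Ccnd1 (chr7:144929931-144939925, minus strand) had a peak of 374 bp that began 23 bp downstream of the 5' end (chr7:144939529-144939902) and covered 1 of its 3 annotated TSS. Its widest promoter peak, of 634 bp, lay in the first part of the gene 165 bp from an internal TSS (chr7:144937399-144938032, intronic at its centre). No peak was listed between 23 bp downstream and 1384 bp upstream of the 5' end.

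Ccnd2 (chr6:127125162-127152193, minus strand) was the gene of the 10 with none of its 7 annotated TSS inside a peak. The stretch from 239 bp upstream to 1606 bp downstream of the 5' end, which holds 5 of the 7 TSS, was free of listed peaks. It was flanked by a peak of 457 bp upstream (chr6:127152432-127152888) and a peak of 368 bp downstream (chr6:127150220-127150587). Of the 2001 bp centred on the 5' end, 22.8% was inside a peak.

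Ccnd3 (chr17:47505051-47599691, plus strand) has 2 clusters of start sites, and both were open. The upstream cluster had a peak of 316 bp in the untranslated first exon (chr17:47504934-47505249). The downstream cluster, near the 3' part of the gene, had peaks of 755 bp (chr17:47593129-47593883) and 546 bp (chr17:47595577-47596122). In all, 15 of the 19 annotated TSS were inside a peak.

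The E type genes showed the opposite form. Ccne1 (chr7:38097984-38107534, minus strand) had 1 promoter peak of 1587 bp (chr7:38106802-38108388), and Ccne2 (chr4:11191351-11204779, plus strand) had 1 of 1844 bp (chr4:11190304-11192147). These spanned the 5' end on both sides, with 79.3% of the 2001 bp around it open at Ccne1 and 89.8% at Ccne2. Both peaks were rich in GC, at 69.6% and 70.3%, where the median over the promoter peaks of all genes was 60.5%.

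Cyclin A2 and the B type cyclins stood between these forms. The promoter peak of Ccna2 (chr3:36564865-36572150, minus strand) was 1194 bp wide (chr3:36571373-36572566). Ccnb1 (chr13:100778650-100786570, minus strand) had a peak of 1080 bp (chr13:100785946-100787025), and Ccnb2 (chr9:70407692-70421547, minus strand), which has a single annotated transcript, had one of 900 bp (chr9:70421074-70421973). All 3 were centred on untranslated exons within 181 bp of the 5' end. Copies of the Cyclin B1 degron were present in the lentiviral constructs of every library. Reads from them were not separated from Ccnb1 here, and the list held no peak inside Ccnb1 other than the promoter peak.

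Both CDK inhibitors had promoter peaks wider than the median of 1102 bp over all genes with one. The peak of Cdkn1a alone was above the upper quartile of 1349 bp. That of Cdkn1b (chr6:134920401-134925513, plus strand) was 1327 bp wide and almost evenly placed, with 664 bp before and 662 bp after the 5' end (chr6:134919737-134921063). At Cdkn1a (chr17:29090976-29100727, plus strand) the nearest peak to the annotated 5' end was 2480 bp away. It was 1688 bp wide (chr17:29093456-29095143) and covered the downstream TSS at 29093769 and 29093781, and a start of the non-coding AC167363.2 lay within 1000 bp of it. No other protein-coding gene had a TSS within 1000 bp of a promoter peak of any of the 10 genes.

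Set side by side, the widest promoter peak measured 634, 457 and 755 bp at the 3 D type cyclins, 1587 and 1844 bp at the E type cyclins, 1194 bp at Ccna2, 1080 and 900 bp at the B type cyclins, and 1688 and 1327 bp at the inhibitors. Over the 15453 protein-coding genes with a promoter peak the median was 1102 bp, with quartiles of 875 and 1349 bp. The D type cyclins thus lay under the lower quartile, with 5.86% to 16.5% of genes having a narrower peak. This ranks the widest single peak. Ccnd1 and Ccnd2 had 2 promoter peaks each and Ccnd3 had 3, beside 1 at each E type cyclin and a median of 1 over genes with one. Summed widths were not ranked. The E type cyclins and Cdkn1a lay above the upper quartile, with 88.2% to 94.8% of genes narrower.

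The class of G1 cyclins was not uniform in this respect. Its median of 755 bp differed by -235 bp from that of the mitotic cyclins, 990 bp, but the D and E type genes lay on either side of both B type genes. When all peaks within 1000 bp of the TSS of a gene were summed instead, the median of the G1 cyclins was 597 bp above that of the mitotic cyclins.

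**Figure D2:**
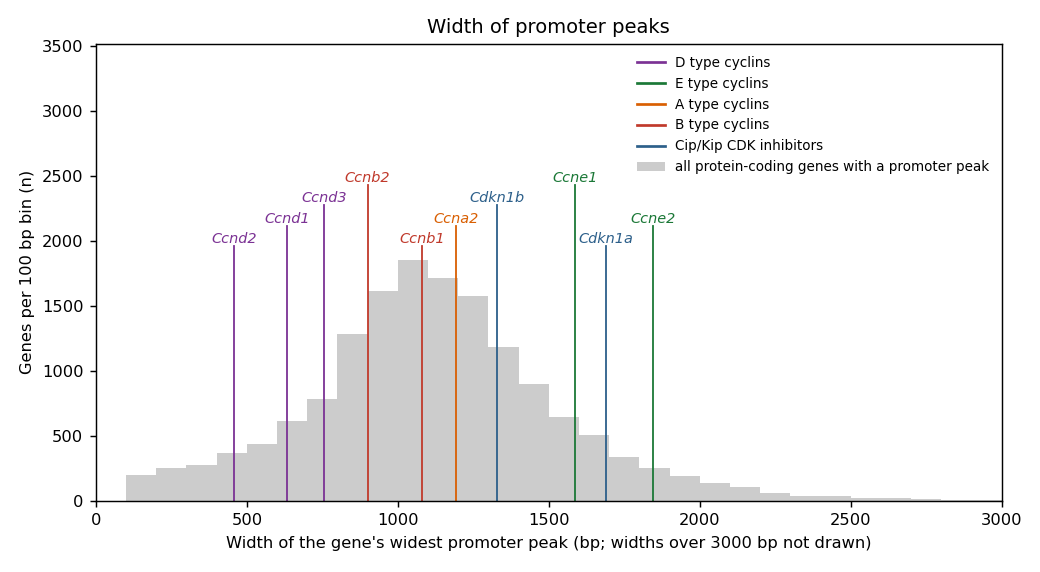
Width of the widest promoter peak (x axis, bp) for all protein-coding genes with one, as a histogram of genes per 100 bp bin (y axis), with a vertical line for each of the 10 genes coloured by type. Line heights carry no value. The 3 D type cyclins are at the narrow end, from 457 to 755 bp, and the 2 E type cyclins and Cdkn1a at the wide end, from 1587 to 1844 bp.

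The windows of 50000 bp held more peaks at the G1 cyclins than at the S and mitotic cyclins. Ccnd1 had 14 peaks, Ccnd2 had 16 and Ccnd3 had 28. Ccne1 had 12 and Ccne2 had 11. Ccna2 had 5, Ccnb1 had 10 and Ccnb2 had 7. Every G1 cyclin thus had more peaks than every S or mitotic cyclin, by 1 peak for the closest pair, Ccne2 and Ccnb1. Cdkn1a had 15 and Cdkn1b had 13, within the range of the G1 cyclins.

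Over all protein-coding genes the median was 10 peaks, with quartiles of 4 and 15. Ccnd2 and Ccnd3 lay above the upper quartile, and no gene lay under the lower quartile. Ccna2 was the lowest of the 10, with 26.1% of genes having fewer peaks. The median was 14 for the G1 cyclins and 8.5 for the mitotic cyclins, a difference of 5.5 peaks.

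Gene length enters these counts, since a long gene has a long window. Ccnd3 spans 94641 bp, and 16 of its 28 peaks overlapped the gene, most of them in its introns. Within 50000 bp of the 5' end alone, Ccnd3 had 16 peaks, Ccnd2 had 13, Ccnd1 had 12 and the E type cyclins had 10 each, against 4 at Ccna2, 9 at Ccnb1 and 7 at Ccnb2. The order of the classes was the same. Per 100 kb of window, the values were 9.7 to 14.4 peaks at the G1 cyclins, 4.66 at Ccna2, 9.27 at Ccnb1 and 6.15 at Ccnb2, beside a median of 6.97 over all genes.

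**Figure D3:**
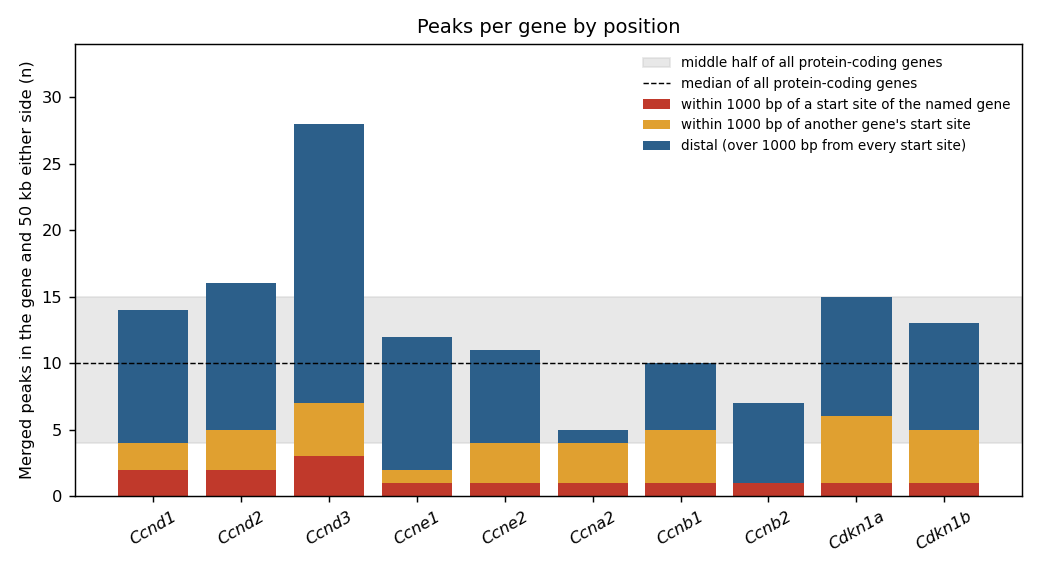
Number of listed peaks in each gene and 50 kb on either side (y axis), stacked by position, for the 10 genes (x axis). The dashed line is the median of all protein-coding genes, 10 peaks, and the grey band their quartiles, 4 and 15. Ccnd3 rises above the others through its distal peaks, and Ccna2 has 1 distal peak.

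The peaks were next split by their distance from start sites. Peaks over 1000 bp from every annotated TSS are called distal here. Of the 131 peaks 88 were distal, or 67.2%, against 74.9% of the whole list. The G1 cyclins had 59 distal peaks, with 7 to 21 per gene, the mitotic cyclins 11, with 5 and 6, and the inhibitors 17, with 8 and 9. Ccna2 had 1, and 10.9% of protein-coding genes had fewer. The median over all genes was 5 distal peaks. As a share of all peaks of a class, distal peaks made up 72.8% at the G1 cyclins and 64.7% at the mitotic cyclins. At Ccnb2 alone, 6 of 7 peaks were distal, so this share did not separate the classes.

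The nearest distal peak was 1384 bp from a TSS at Ccnd1, 1093 bp at Ccnd2 and 2830 bp at Ccnd3. It was 4511 bp away at Ccne1 and 17723 bp at Ccne2, 33222 bp at Ccna2, and 13900 and 4880 bp at Ccnb1 and Ccnb2. Over all protein-coding genes the median was 7443 bp, with quartiles of 3036 and 21108 bp. The D type cyclins were under the lower quartile, Ccna2 was above the upper one, and the others lay between. Cdkn1a, at 1801 bp, was on the D type side and Cdkn1b, at 5590 bp, was between the quartiles.

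Around the mitotic cyclins, distal peaks were also narrow. Their median width was 167 bp, that at the D type cyclins 482 bp, at the E type cyclins 364 bp and at the inhibitors 345 bp, beside 352 bp over all distal peaks of the list. Ccnb2 had no distal peak wider than 386 bp, and together its 7 peaks covered 1.9% of the window, the lowest share of the 10 genes. The highest share was 8.86%, at Ccnd3.

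**Figure D4:**
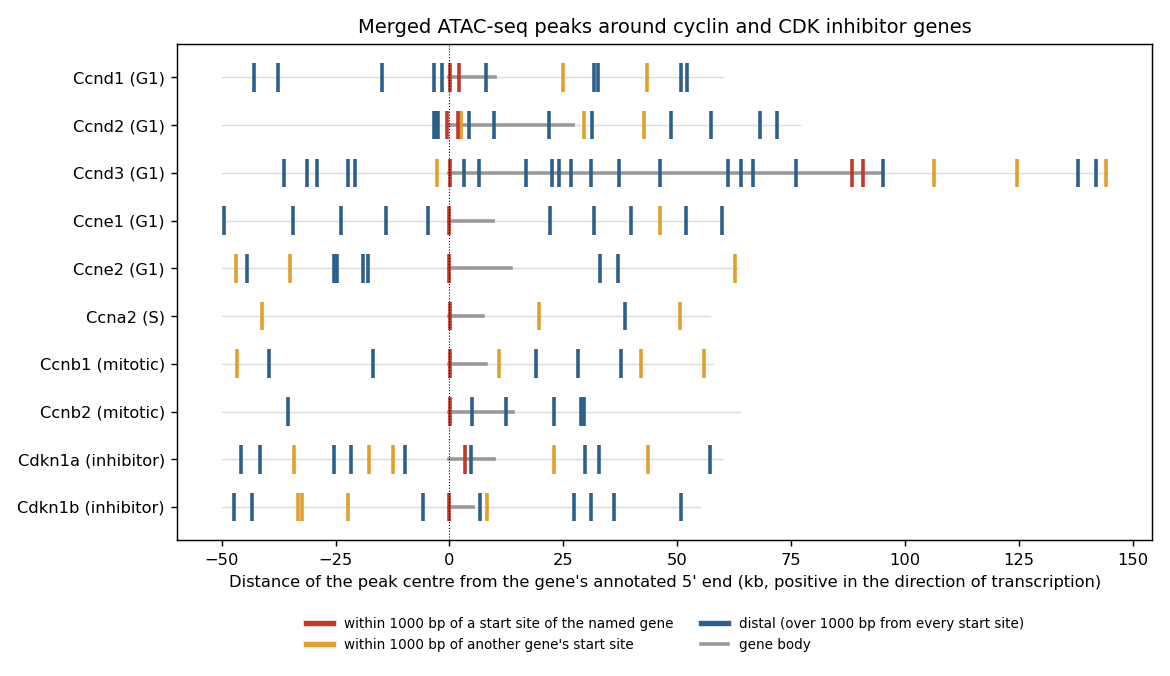
Position of the 131 listed peaks relative to the annotated 5' end of each gene (x axis, kb, positive in the direction of transcription), 1 row per gene. Each mark is a peak centre, of fixed thickness, coloured by its distance from start sites, and thick grey lines are gene bodies. Marks are dense along the gene body of Ccnd3, which 16 of its 28 peaks overlap, and sparse at Ccna2 and Ccnb2.

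The D type cyclins had their distal peaks in different places. At Ccnd1, 5 peaks lay upstream, 3 overlapped the gene and 6 lay downstream towards Fgf15, a growth factor of the FGF family, and LTO1. Directly upstream, peaks of 522 bp (chr7:144941309-144941830) and 843 bp (chr7:144942884-144943726, the widest distal peak of the window) stood in intergenic DNA. The other end of the window held the only distal peak of the 131 with an OCT4::SOX2 match, intergenic at 50431 bp downstream of the 5' end of Ccnd1 and 7037 bp from a TSS of Fgf15 (chr7:144888722-144889494).

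At Ccnd2 the upstream side was almost closed. Of its 4 upstream peaks the farthest was 3219 bp from the 5' end, followed by 46594 bp without a listed peak to the edge of the window, the longest such stretch of the 10 genes. The widest distal peak, of 848 bp, was centred on a coding exon of Fgf23 (chr6:127079780-127080627). Tigar, a regulator of glycolysis named as a target of p53, was the other protein-coding gene with its 5' end in the window.

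Ccnd3 carried 13 distal peaks in its introns, from 3020 bp to 76211 bp downstream of the 5' end, and the widest measured 1249 bp (chr17:47541581-47542829). Taf8, a subunit of the general transcription factor TFIID, was the nearest of 5 other protein-coding genes in the window, with a promoter peak 2151 bp upstream of Ccnd3.

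The E type cyclins differed in their neighbours. No other protein-coding gene had its 5' end in the window of Ccne1, where 10 of 12 peaks were distal and for 8 the nearest protein-coding TSS was that of Ccne1. The widest of all 88 distal peaks stood there, 1726 bp of intergenic DNA at 13004 bp from a TSS of Ccne1 (chr7:38084640-38086365). At Ccne2, 1 of 11 peaks, its promoter peak, had Ccne2 as the nearest protein-coding gene. The others were nearest to Trp53inp1, a stress gene induced by p53, and to Ints8, a subunit of the Integrator complex, and the widest distal peak, of 769 bp, was intergenic on the Trp53inp1 side (chr4:11146518-11147286).

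Ccna2 had a promoter peak and little else of its own. Of its other 4 peaks, 3 lay at the promoters of Exosc9, an RNA exosome subunit, Bbs7, a protein of the ciliary BBSome, and Gm11549. The fourth was an intergenic peak of 236 bp (chr3:36533388-36533623). Upstream of the promoter peak, 40188 bp were without a listed peak.

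For Ccnb1, the promoter peak was likewise the only one whose nearest protein-coding TSS was its own. Another 4 peaks were the promoters of Cenph, a centromere protein, Mrps36, the zinc transporter Slc30a5 and Cdk7, the kinase of the CDK-activating complex. The widest of the 5 distal peaks measured 486 bp, in an intron of Slc30a5 (chr13:100825967-100826452). Ccnb2 had no peak at the start of another gene, and its widest distal peak, of 386 bp, was in an intron of Myo1e (chr9:70391835-70392220).

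Around the inhibitors, non-coding genes took a share of the peaks. At Cdkn1a, 2 peaks of 1164 and 1385 bp were at starts of Trp53cor1 (lincRNA-p21), a non-coding RNA induced by p53, and Rab44 was the other protein-coding gene. The widest distal peak there, of 658 bp, was intergenic between Trp53cor1 and Cdkn1a (chr17:29080794-29081451). At Cdkn1b, a peak of 1073 bp was at the start of the non-coding Lockd, which lies just downstream and has been studied as a regulator of Cdkn1b. The widest distal peak, of 628 bp, stood between Cdkn1b and Lockd (chr6:134926887-134927514), and Gpr19, an orphan receptor, was the other protein-coding neighbour.

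Motifs were searched for on both strands from 250 bp before to 50 bp after the annotated 5' end, with 6 motifs. A match is a description of the letters and not evidence of binding. The CCAAT box of NF-Y was found at 4 of the 10 genes, Ccne2, Ccnb1, Ccnb2 and Cdkn1b, against 39.0% of all protein-coding genes. This split depended on the window. From 500 bp before to 100 bp after the 5' end 6 genes had the box, with Ccnd2 and Ccna2 added, against 58.3% of all genes. In the 300 bp at the TSS nearest to the centre of the promoter peak 6 genes had it, with Ccnd3 and Cdkn1a added, against 36.2% of genes with a promoter peak. In whole promoter peaks 8 genes had it, all but Ccnd1 and Ccne1, against 65.5%. In Ccnb2 the boxes began at positions -94, -61 and -28 from the 5' end, each 33 bp apart, and in Ccnb1 at -15 and 17, which is 32 bp apart. All were on the coding strand. Counted from the RefSeq starts of the printed sequences, the same boxes begin at -87, -54 and -21 in Ccnb2 and at -99 and -67 in Ccnb1, wholly upstream of the start. Pairs of boxes on 1 strand whose starts were 30 to 35 bp apart, a range chosen after these values were seen, were found at 1.44% of all genes and at Ccnb1 and Ccnb2 among the 10.

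A CHR match was found at Ccnb2, at positions -174 and -3, and at none of the other 9 genes, against 18.0% of all genes. Only the words TTTGAA and TTCGAA were searched, so a variant of the element would be missed. Both NF-Y and CHR matches occurred at Ccnb2 among the 10 genes and at 7.99% of all genes. In the whole promoter peaks, 2 of the 10 genes had both (Ccnb2 and Cdkn1b), beside 27.5% of all genes with a promoter peak.

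GC boxes were the most widespread, at 8 of the 10 genes against 43.0% of all genes, with 5 at Ccne1, 4 at Ccna2 and 3 at Ccnb1. All 10 genes had a promoter peak, against 70.4% of all genes, and the GC box share among genes with such a peak is not given here. Ccnd2 and Cdkn1a had no GC box in this window. Inside their peaks, the window at the TSS of Cdkn1a at 29093781 had 2, and that at the TSS of Ccnd3 at 47593529 had 4. The E2F motif (TTTGGCGC, TTTCGCGC, TTTCCCGC or TTTGCCGC) was found at 0 of the 10 genes, beside 2.79% of all genes. In the whole promoter peak, a longer stretch, 3 of the 10 genes had one (Ccnd3, Ccne2 and Cdkn1a), beside 12.0% of all genes with a promoter peak.

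The cAMP response element core (CRE, TGACGT) was found at Ccnd1, at position 39 from the 5' end and -17 from its next TSS, against 8.64% of all genes. The E-box (CACGTG), read by MYC and related factors, was found at Ccnd2 (position -64) and Ccne2 (position -132), against 7.75% of all genes. The CRE of Ccnd1 was inside the listed peak that began 23 bp downstream of the 5' end. The E-box of Ccnd2 was in the stretch without listed peaks, and that of Ccne2 inside its promoter peak.

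**Figure D5:**
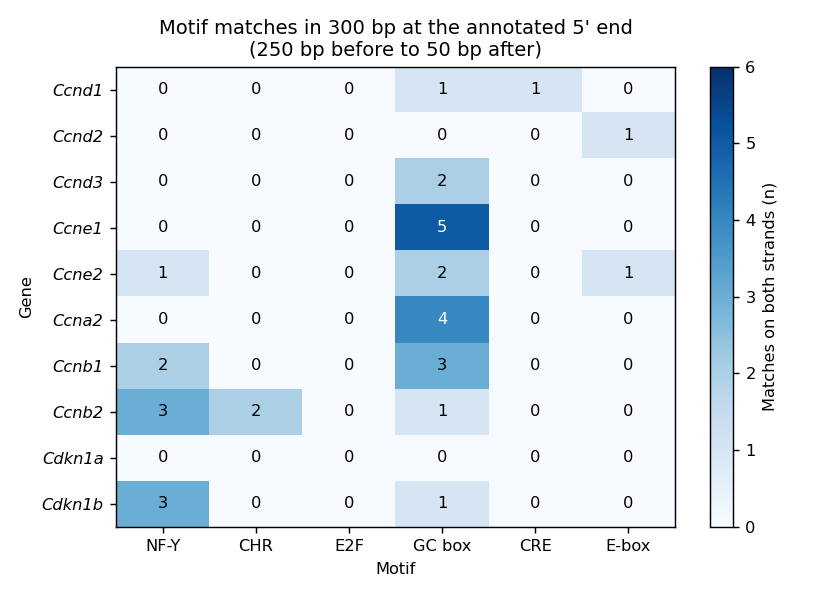
Number of motif matches on both strands, printed in each cell and shown by colour, in the 300 bp at the annotated 5' end of each gene (y axis) for 6 motifs (x axis). NF-Y matches reach 3 at Ccnb2 and Cdkn1b, and GC boxes reach 5 at Ccne1. The searched CHR words are at Ccnb2 alone of the 10 genes, and Cdkn1a has no match at its upstream 5' end.

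In the 88 distal peaks, sequence motifs of ES cell factors were counted beside all 76716 distal peaks of the list. The octamer of OCT factors (ATGCAAAT) was in 4 peaks (4.55%, against 2.52% of all distal peaks), and the composite OCT4::SOX2 motif with up to 2 mismatches in 1 (1.14%, against 0.833%). SOX motifs (CCATTGT or CCTTTGT) were in 18 (20.5%, against 21.7%), KLF motifs (CCACACCC or CCCCACCC) in 20 (22.7%, against 18.7%), and CTCF motifs in 14 (15.9%, against 13.6%). With 88 peaks, 1 match more or fewer moves a share by 1.14 percentage points.

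FOXO motifs (TGTTTAC), read by forkhead factors known as activators of Cdkn1b in other cells, were in 8 distal peaks (9.09%, against 6.57%). None of these distal peaks was at Cdkn1b. Outside the distal peaks, the window of Cdkn1b held a FOXO match in the peak of 1447 bp at starts of Gpr19 and 2810454H06Rik. Among the distal peaks, TCF motifs (CTTTGAT) were in 7 (7.95%, against 7.99%). Another 3 motifs were in 2 distal peaks each (2.27%): ESRRB (TCAAGGTCA, against 3.08%), STAT (TTCCNGGAA, against 1.98%) and p53 (against 4.64%). At least 1 of the 10 motifs was in 58% of the distal peaks, beside 56.6% of the list.

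Restricted to the central 200 bp of each peak, OCT motifs were left in 1 peak (against 1.25% of all distal peaks), SOX in 8 (against 12.4%), KLF in 9 (against 10.4%), TCF in 4 (against 3.91%), FOXO in 4 (against 3.15%) and ESRRB in 1 (against 1.59%). OCT4::SOX2 and p53 were left in 0 (against 0.450% and 2.03%). In this stretch 1 of 88 peaks is 1.14%, under the OCT share of the list.

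The classes differed in the count of peaks with any motif. At least 1 motif was found in 30 of 42 distal peaks at the D type cyclins (71.4%) and in 8 of 17 at the E type cyclins (47.1%). The counts were 11 of 17 at the inhibitors (64.7%) and 2 of 12 at Ccna2 and the mitotic cyclins (16.7%). The share over all distal peaks of the list was 56.6%. OCT or SOX motifs were in 15 of the 42 at the D type cyclins, 1 of the 17 at the E type cyclins and 4 of the 17 at the inhibitors. They were in 0 of the 12 at Ccna2, Ccnb1 and Ccnb2, beside 23.8% of all distal peaks. The distal peaks of the mitotic cyclins were narrower, as given above, and a narrow peak has fewer letters to match. The part of width in this difference was not tested.

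Of the 43 peaks within 1000 bp of a TSS, 2 held the octamer (4.65%, against 2.67% of all such peaks), the promoter peak upstream of Ccnd2 and a peak at Gpr19 in the window of Cdkn1b, with 2 octamers (chr6:134898651-134898658 and chr6:134898742-134898749). The octamer matches in distal peaks fell 1 each to Ccnd1, Ccnd2, Ccnd3 and Cdkn1b. The distal matches and that of the Ccnd2 promoter peak are printed with 20 bases on either side, the match in capitals, since OCT4 is the factor that the study removed. That of Ccnd1 was in the 522 bp peak upstream of the gene (chr7:144941621-144941628). That of Ccnd2 was in a peak of 526 bp centred on a coding exon of the gene (chr6:127130524-127130531, in chr6:127130146-127130671), and that of the promoter peak lay upstream of the gene (chr6:127152587-127152594). The match of Ccnd3 was intergenic, 28226 bp from a TSS of Taf8 (chr17:47473543-47473550, in chr17:47473405-47474046). At Cdkn1b it was in an exon of Lockd (chr6:134951610-134951617, in chr6:134951332-134951676).
Ccnd1 upstream: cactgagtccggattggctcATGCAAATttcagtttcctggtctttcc
Ccnd2 coding exon: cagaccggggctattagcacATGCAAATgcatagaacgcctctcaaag
Ccnd2 promoter peak: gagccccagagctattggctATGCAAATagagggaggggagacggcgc
Ccnd3 intergenic: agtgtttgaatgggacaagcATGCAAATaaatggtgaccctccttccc
Cdkn1b, in Lockd: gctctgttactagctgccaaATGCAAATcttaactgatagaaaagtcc

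The OCT4::SOX2 match near Fgf15 in the window of Ccnd1 (chr7:144888779-144888793) had 2 mismatches. With at most 1 mismatch no distal peak of the 88 had a match, and with up to 3 there were 5. Outside the distal peaks, a match with 1 mismatch was in the promoter peak of Bbs7 in the window of Ccna2 (chr3:36613670-36613684). Both are shown with the match in capitals.
Near Fgf15: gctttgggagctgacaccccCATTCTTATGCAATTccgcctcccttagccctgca
At Bbs7: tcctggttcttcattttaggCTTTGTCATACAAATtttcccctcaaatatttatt

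The p53 motif was searched as a pair of its 10-base repeats at most 13 bp apart with up to 2 mismatches. Distal matches were in an intron of Tigar in the window of Ccnd2 (chr6:127094333-127095016) and in an intron of Rab44 in that of Cdkn1a (chr17:29123502-29124024). Of the 43 peaks within 1000 bp of a TSS, 5 held a match (11.6%, against 5.53% of all such peaks). A peak at a start of Trp53cor1, 1385 bp wide, held one with 1 mismatch and no spacer (chr17:29079039-29079058). The promoter peak of Ccnb1 and the peak at LTO1 and Bc1 in the window of Ccnd1 held one with 1 mismatch, and the promoter peaks of Cdk7 and Slc30a5 in the window of Ccnb1 held one with 2 mismatches. Just before the annotated 5' end of Cdkn1a, where no peak was listed, stood overlapping matches with 0 and 1 mismatches at chr17:29090906-29090937 and chr17:29090928-29090947. They began at -2875 and -2853 bp from the TSS at 29093781 inside the promoter peak and lay 2518 and 2508 bp from the nearest listed peak. No p53 match was found from the 5' end of Cdkn1a to the end of the gene. The 2 overlapping matches are in capitals here, and the Trp53cor1 match follows.
Cdkn1a upstream: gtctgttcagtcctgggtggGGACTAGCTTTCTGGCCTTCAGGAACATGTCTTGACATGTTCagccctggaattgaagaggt
Trp53cor1 start: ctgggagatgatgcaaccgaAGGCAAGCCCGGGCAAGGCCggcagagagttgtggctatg

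Other genes of the cell cycle machinery were set beside the 10. Of 42 further genes (CDKs, other cyclins and inhibitors, the RB and E2F families, CDC25 phosphatases and their opposing kinases, SCF and APC/C factors and MuvB subunits) 41, or 97.6%, had a promoter peak. The share over all protein-coding genes was 70.4%. The exception among the 42 was Ccnb3, a cyclin best known from meiosis, which had no peak in its window. Its TSS was 146689 bp from the nearest peak. The median was 13.5 peaks per window, ranging from 0 to 27, and the median of the widest promoter peaks was 1260 bp. For the 10 genes these medians were 12.5 peaks and 1137 bp. They were 10 peaks over all protein-coding genes and 1102 bp over those with a promoter peak.

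The most peaks were at Cdk6, a partner of D type cyclins, with 27. Fzr1, the APC/C activator of G1, had 23, and E2f2, Cks1b and Lin54 had 22 each. Gene length enters these counts too. Within 50000 bp of the 5' end alone, Cdk6 had 14 peaks, against 21 at Fzr1 and Cks1b, 18 at E2f2 and 15 at Lin54. The fewest after Ccnb3 were at Ccna1, the germ line counterpart of Ccna2, and at the repressor E2f8, with 3 each. Cdk4, the other partner of D type cyclins, had 12, and Cdk1, the partner of B type cyclins, had 18, more than either B type cyclin.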

How the data were processed

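ATAC-seq libraries were prepared from ZHBTc4 cells that expressed MD-OCT4 or MD*-OCT4. Per the labels and the methods of the study, the authors aligned reads to GRCm38 (mm10) with STAR 2.6.1c, removed duplicates with Picard, used MACS2 2.1.1.20160309 on read pairs to call peaks and joined those of the dox-treated cells into a single set (BEDTools). The deposited table has 3 columns (chromosome, start, end) and no count, score or other value per library, so depth is unknown and no error can be given. The methods name filters on peaks over 5000 bp, input peaks and blacklisted regions. The list still holds 7 peaks over 5000 bp, none of them among the 131, and the other filters could not be tested. Whether the list holds every merged peak was not established.

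Genes, exons and TSS were taken from GENCODE M21 (GRCm38), and coordinates count from 1. All transcripts contribute TSS, and the 5' end is that of the whole gene. The widest peak at most 1000 bp from a TSS gives the promoter width. Percentages over genes use all 21938 protein-coding genes. Genes were named by rule: all 10, neighbouring protein-coding genes in a window (the nearest where there were over 4), and, of the other cell cycle genes, those without a promoter peak and those with the most and the fewest peaks, ties included. Cdk1 and Cdk4, the non-coding and other genes at peaks, and the distances to distal peaks were chosen after their values were seen. The 10 genes, the lists and the motifs were chosen with earlier results of these data known.

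Motif search and window counts were tested on simulated data. Motifs were exact words, except OCT4::SOX2 (up to 2 mismatches), CTCF (1) and p53 (2), and overlapping matches of 2 motifs count for both. Python 3.11.15, numpy 2.4.6, pysam 0.24.0 and matplotlib 3.10.9 were used.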

Additional observations from a re-analysis of the deposited data

How the results depend on the processing

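The number of peaks at the 10 genes was 131, and 83 with a window of 25000 bp or 237 with 100000 bp. The difference in median peaks per gene between G1 and mitotic cyclins, 5.5, was 3.5 and 8.5 with these windows, and kept its sign under every alternative run, including a fixed window at the 5' end, distal peaks alone and leaving out Ccnd3, which was added after seeing the data. The difference in promoter peak width, -235 bp, was -533 bp for the peak nearest to the 5' end, and turned to 597 bp with all promoter peaks summed and to 726 bp without the D type cyclins, an alternative also added after seeing the data. It therefore rests on which genes and peaks are counted. Genes with both NF-Y and CHR numbered 1, and 2 in whole promoter peaks. Distal peaks with OCT4::SOX2 numbered 1, against 0 in the central 200 bp, 0 with 1 mismatch and 5 with 3 mismatches. Promoter peak counts stayed within 1.5 times under all alternatives run.

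No paired analysis was possible because peaks carry no value per library. The planned limma fit of MD-OCT4 against MD*-OCT4, with and without each replicate, was not run. Since peaks were merged, a region open in 1 library counts like a region open in all 16.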
